A study of Mus musculus with 12 samples.

Results

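The 10 genes described here encode the cannabinoid receptors Cnr1, Cnr2 and Gpr55 and the enzymes that make, break down or oxidise the endocannabinoids, namely Napepld, Dagla, Daglb, Faah, Abhd6, Mgll and Ptgs2. They were chosen by name, for their roles, out of 21883 protein-coding mouse genes. CUT&Tag was used to map H3K4me3, which sits at promoters in use, and H3K27me3, which Polycomb complexes lay down at silenced genes, in 12 libraries from cultured tumour organoids. CUT&Tag directs a transposase to an antibody-bound mark, so that cut fragments pile up where the mark lies. The organoids were derived from the PyMT mouse mammary tumour model, in which a polyoma middle T transgene drives the tumours. The labels name the tissue tumoroids, also call the cultures spheroids, give the cell type as breast cancer and give the genotype of every sample as WT. They name neither the promoter of the transgene nor the number of animals or cultures behind the organoids. For each mark there were 2 libraries of control organoids (Ctrl), 2 of organoids given SR2 and 2 of organoids given THC, all taken 3 days after treatment. What SR2 stands for, the doses and what the control treatment was are not given in the sources used here. The title of the series concerns modulation of CB2R, the receptor that Cnr2 encodes.

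Endocannabinoids are lipid messengers cut from membrane phospholipids on demand. Anandamide can be released by the phospholipase D that Napepld encodes and is hydrolysed by the fatty acid amide hydrolase of Faah, whereas 2-arachidonoylglycerol is made by the diacylglycerol lipases of Dagla and Daglb and hydrolysed by the lipases of Mgll and Abhd6. Both act on CB1, the main cannabinoid receptor of the nervous system and the product of Cnr1, and on CB2, which is best known from immune cells.

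The H3K4me3 lists held 11924 to 18383 peaks each and the H3K27me3 lists 70 to 2712. The pileup of fragments at the H3K4me3 peak summits, recovered from the deposited peak values, had a median of 62 and 58 in the Ctrl libraries, 36 and 54 with SR2, and 21 and 44 with THC. The first THC library stood apart, with the fewest peaks and the lowest median pileup. It also lacked H3K4me3 at the starts of Krt18, Krt5 and Krt14, keratin genes that the other 5 libraries marked. In the cell type marker lists, 6 of 6 epithelial genes had an H3K4me3 peak in both Ctrl libraries (9775 to 10106 bp summed over the list in Ctrl, 7735 to 8750 bp in SR2, 3487 to 6659 bp in THC), Epcam and Krt8 among them. Of the leukocyte genes reported here Cd68 was marked, at 349 and 391 bp in Ctrl, no bp in SR2 and 317 bp in 1 THC library, while Ptprc, Lyz2, Cd3e and Cd79a were at 0 throughout. The fibroblast list had 1 of 5 (Col1a1, 1025 to 1045 bp in Ctrl, 901 to 1142 bp in SR2 and 292 to 360 bp in THC), with Col1a2, Pdgfra, Pdgfrb and Dcn at 0. The adipocyte list had 1 of 4 (Lpl, 1097 to 1167 bp in Ctrl, 520 to 667 bp in SR2 and none in THC), with Adipoq, Plin1 and Cidec at 0. The endothelial list had 1 of 3 (Kdr, 559 to 897 bp in Ctrl, 0 to 559 bp in SR2 and none in THC), and the neuronal list had a peak in 1 Ctrl and 1 THC library only (Syn1, 369 and 267 bp). Col1a1, Lpl and Cdh1 of the epithelial list had no stranded start and were read at either gene end, as were Pdgfrb and Dcn. The Kdr region was shared with Gm32727. The part of other cell types in the results at the 10 genes was not tested.

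The measure at each gene start is breadth, the number of bp covered by a library's H3K4me3 peaks in the region within 1 kb of an annotated start. Of the 9 genes with a stranded start in the RefSeq promoter table, 7 were marked in both Ctrl libraries: Cnr1, Napepld, Daglb, Faah, Abhd6, Mgll and Ptgs2. The background for that share was 55.7% of 17491 protein-coding genes with such a start, and 59% had a peak in at least 1 library, where the members' count was again 7. Cnr2 and Gpr55 had no H3K4me3 peak at any start in any of the 6 libraries. Dagla, for which the strand was not in that table, had a region at its gene end of higher coordinate and none at the other. Only Napepld and Daglb were marked at the start in all 6 libraries, 2 of 9, against a background of 48.4%. In bulk samples, fewer cells carrying the mark and less mark per cell cannot be told apart.

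**Figure D1:**
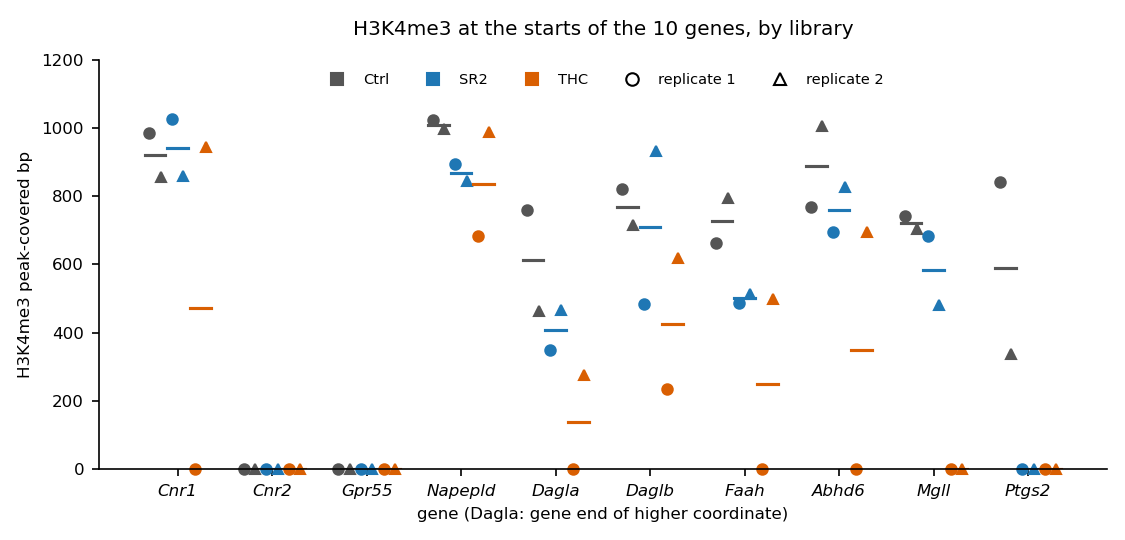
H3K4me3 peak-covered bp at the start of each of the 10 genes (vertical axis, bp), with circles for replicate 1, triangles for replicate 2 and short lines for the mean of each treatment. Cnr2 and Gpr55 lie at 0 in all 6 libraries, Mgll is at 0 in both THC libraries, and Ptgs2 is at 0 in all 4 treated libraries.

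In the plot of breadth by library, the marked members were narrow compared with other gene starts. Their mean breadth in Ctrl ran from 589 bp at Ptgs2 to 1009 bp at Napepld. The lower quartile, median and upper quartile over 9742 protein-coding starts marked in both Ctrl libraries were 965.5, 1225 and 1538.5 bp. Napepld stood at percentile 29.0 of these starts, Cnr1 at 21.1, Abhd6 at 18.7, Daglb at 11.5, Faah at 9.27, Mgll at 8.96 and Ptgs2 at 4.38. Thus 6 of the 7 lay below the lower quartile, and only Napepld lay above it.

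Cnr1 carried H3K4me3 in every library but the first THC library. Its region, chr4:33924091-33925217 (mm10, + strand), lay over the annotated starts at 33924264 and 33924644, while a further start at 33926380 had no region within 1 kb. It covered 985 and 857 bp in Ctrl, 1026 and 858 bp with SR2, and 0 and 943 bp with THC. The SR2 and Ctrl values overlapped, and the second THC library lay between the Ctrl libraries. Summit pileups were 27 and 19 in Ctrl, 15 and 17 with SR2 and 17 in the second THC library, all below the median of their list. The mean was 921 ± 90.5 bp in Ctrl (SD, n = 2), 942 ± 119 bp in SR2 and 472 ± 667 bp in THC, the last spread resting on the absent peak.

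Cnr2 had no H3K4me3 at either of its annotated starts, chr4:135895189 and chr4:135911680 (+ strand), in Ctrl, SR2 or THC. A region did lie close to the other end of the gene, at chr4:135920380-135922090, marked in all 6 libraries. It began 161 bp beyond the 3′ end of Cnr2 and 25191 and 8700 bp from the Cnr2 starts, and it contained the start of Fuca1 (chr4:135920726, + strand), which encodes the lysosomal α-L-fucosidase. By position the region belongs to the Fuca1 start and not to a Cnr2 start. It covered 1684 and 1591 bp in Ctrl, 1463 and 1648 bp with SR2, and 901 and 1225 bp with THC. Both THC libraries lay below all others, and SR2 overlapped Ctrl. Summit pileups there were 163 and 109 in Ctrl, 55 and 98 with SR2 and 22 and 72 with THC, so that the peak was well above the lowest pileup called in any list, 5 to 7. At these depths no H3K4me3 was detectable at the Cnr2 starts, which does not show that the gene was silent.

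**Figure D2:**
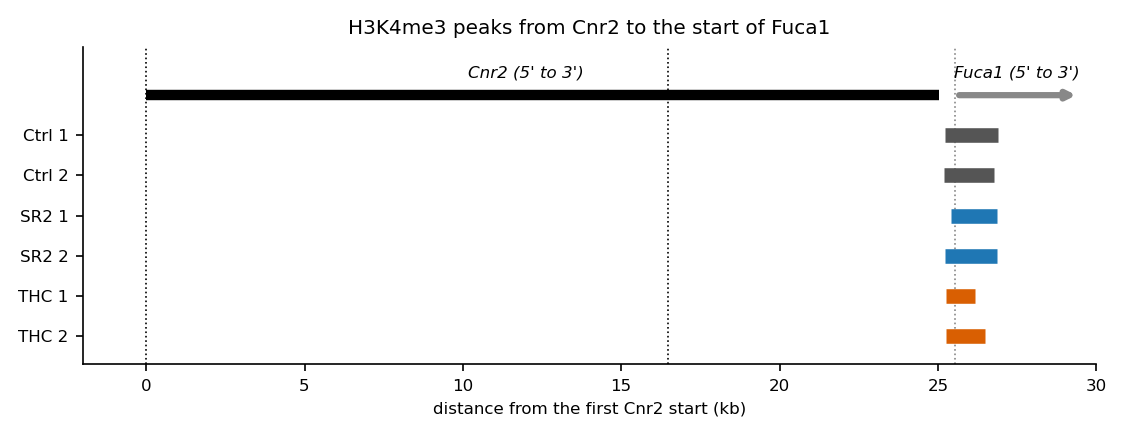
H3K4me3 peaks of the 6 libraries (1 row of bars per library) from the first Cnr2 start to the start of Fuca1; the horizontal axis is the distance from the first Cnr2 start in kb, dotted lines mark the annotated starts, and the grey arrow gives the direction of Fuca1 with no scale to its length. The only peaks lie past the 3′ end of Cnr2 and over the start of Fuca1.

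The 250 bases before these starts differ in CpG content, the dinucleotide that marks CpG-island promoters. The first Cnr2 start, which was unmarked, and the neighbouring Fuca1 start, which was marked in all 6 libraries, are shown with CpG in capitals (RefSeq, GRCm38.p6, 5′ to 3′).
Cnr2 (chr4:135894939-135895188, + strand): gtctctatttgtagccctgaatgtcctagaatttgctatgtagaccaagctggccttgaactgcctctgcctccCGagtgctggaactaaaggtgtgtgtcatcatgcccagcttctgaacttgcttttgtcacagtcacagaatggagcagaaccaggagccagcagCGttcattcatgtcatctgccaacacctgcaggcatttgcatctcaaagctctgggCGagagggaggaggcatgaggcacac
Fuca1 (chr4:135920476-135920725, + strand): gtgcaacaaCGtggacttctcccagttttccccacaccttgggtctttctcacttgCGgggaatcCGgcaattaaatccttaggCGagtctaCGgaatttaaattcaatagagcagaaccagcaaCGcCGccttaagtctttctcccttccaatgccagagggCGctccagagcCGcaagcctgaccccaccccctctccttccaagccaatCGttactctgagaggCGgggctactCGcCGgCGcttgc
In the window from 250 bases before to 50 after the start, each Cnr2 start held 3 CpG and the Fuca1 start 18. The Gpr55 start in the same table held 4. Cnr1 held 40 and 33 at its marked starts and 5 at the unmarked one. Among the marked enzyme genes the counts were 32 and 42 at the Mgll starts, 28 at Napepld, 24 and 26 at Abhd6, 16 at Faah, 16 at Ptgs2 and 11 at Daglb. Over all protein-coding starts of the table, 9.4% of 6875 starts with at most 5 CpG had an H3K4me3 region within 1 kb. That share was 53.4% of 4431 starts with 6 to 14 CpG and 90.9% of 9956 starts with at least 15. Among the starts counted, the unmarked ones of Cnr2, Gpr55 and Cnr1 thus fell in the class where most starts were unmarked. Every marked start counted but that of Daglb, at 11 CpG in the middle class, fell in the class with the highest marked share. Annotated starts outside the promoter table, among them that of Gpr55 at chr1:85991583, had no CpG count. No window of these genes held TATAAA on either strand, which 13.6% of all 32851 promoters did. GGGCGG was found on either strand in at least 1 window of Cnr1, Mgll, Faah, Abhd6, Ptgs2 and Fuca1 (35.7% of all promoters), and CCAAT in those of Cnr2, Abhd6 and Fuca1 (37.4%).

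**Figure D3:**
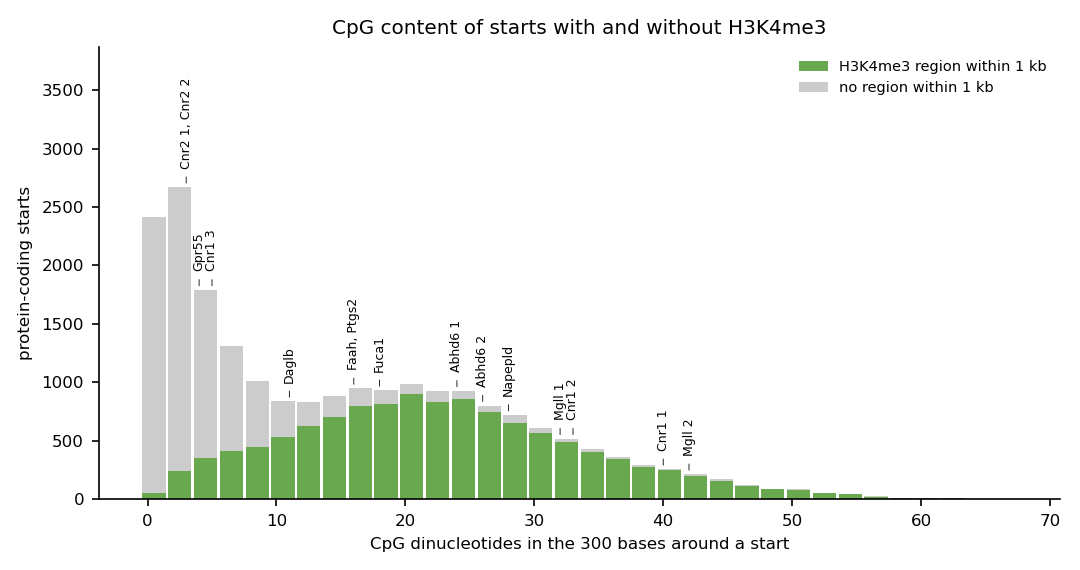
Protein-coding starts (vertical axis, number) by the number of CpG dinucleotides in the 300 bases around them (horizontal axis); green bars are starts with an H3K4me3 region within 1 kb and grey bars, stacked on them, starts without. The Cnr2 starts, at 3 CpG, and the counted Gpr55 start, at 4, lie among mostly unmarked starts. The starts of Mgll and the first of Cnr1 lie at 32 to 42.

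Gpr55, a receptor for lysophosphatidylinositol that also binds cannabinoids, had no H3K4me3 peak within 1 kb of its starts at chr1:85961055 and chr1:85991583 (− strand). No peak of either mark lay anywhere over the gene (chr1:85933221-85991583) or its 5 kb flank in the 12 libraries.

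Among the synthesis genes, Napepld had the strongest H3K4me3 of the 10 genes. Its region, chr5:21700993-21702029 (− strand), lay over the start at 21701622. It covered 1023 and 995 bp in Ctrl, 894 and 843 bp with SR2, and 682 and 987 bp with THC. All 4 treated libraries lay below the lower Ctrl library, the second THC library by only 8 bp. Summit pileups were 144 and 108 in Ctrl, 54 and 77 with SR2 and 26 and 51 with THC, and the peak stood at percentile 65.8 to 86.1 of its list by the authors' −log10 q. A second, weaker region inside the gene, chr5:21672979-21673480, covered 442 and 424 bp in Ctrl and 422 bp in the second SR2 library and was absent in the other 3.

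Daglb was the other gene marked in every library, at chr5:143464278-143465221 (+ strand, starts at 143464484 and 143464493). Its breadth was 822 and 716 bp in Ctrl, 485 and 931 bp with SR2, and 235 and 618 bp with THC. The SR2 libraries lay on either side of the Ctrl libraries, and both THC libraries lay below them. In the first THC library the peak had a summit pileup of 9 and, at chr5:143464797-143465031, began past both starts.

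Dagla, the paralogue of Daglb and the main source of 2-arachidonoylglycerol in neurons, had a region at its higher-coordinate end, chr19:10304342-10305237. It covered 760 and 464 bp in Ctrl, 350 and 465 bp with SR2, and 0 and 276 bp with THC. The groups were in the order Ctrl, SR2, THC by mean (612 ± 209, 408 ± 81.3 and 138 ± 195 bp, SD, n = 2 each), with the Ctrl and SR2 ranges overlapping by 1 bp. Inside the gene lay 4 further regions, of 333 to 707 bp in the Ctrl libraries that called them, at chr19:10277678-10278420, chr19:10289566-10290128, chr19:10290409-10290743 and chr19:10296872-10297524. Another lay within 5 kb of the other gene end, at chr19:10240372-10240898. All 5 were absent from the first SR2 library and from both THC libraries, and 3 were present in the second SR2 library. Their summit pileups in the Ctrl libraries were 10 to 28, below the median of their lists.

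The hydrolase genes Faah and Abhd6 shared a pattern with Cnr1, a peak in every library but the first THC library. That pattern held for 3 of the 7 members with a start marked in both Ctrl libraries, against a background of 5.98% of 9742 starts. All 3 lay below the lower quartile of Ctrl breadth, and the share among such narrow starts was not computed. Loss in both THC libraries was more frequent there, 17.9% against 4.96% over all starts. The Faah region, chr4:116017279-116018108 (− strand, start at 116017924), covered 662 and 793 bp in Ctrl, 488 and 514 bp with SR2, and 0 and 497 bp with THC. All 4 treated libraries lay below Ctrl, and the second THC library lay between the SR2 libraries. The Abhd6 region, chr14:8002593-8003704 (+ strand, starts at 8002888 and 8002966), covered 769 and 1005 bp in Ctrl, 695 and 825 bp with SR2, and 0 and 696 bp with THC. Here SR2 overlapped Ctrl, and the second THC library was 1 bp above the lower SR2 library. A lncRNA, Gm30244 (− strand), starts at chr14:8004054, within 1 kb of the Abhd6 region but outside it.

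Mgll, which encodes monoacylglycerol lipase, the main hydrolase of 2-arachidonoylglycerol in many tissues, was unmarked in both THC libraries. Its region, chr6:88724235-88725082 (+ strand), lay over the starts at 88724412 and 88724704. It covered 741 and 702 bp in Ctrl and 683 and 481 bp in SR2, with no peak in either THC library. The SR2 libraries lay below both Ctrl libraries (722 ± 27.6 bp in Ctrl and 582 ± 143 bp in SR2, SD, n = 2 each). Where the peak was called its summit pileups were 23 and 14 in Ctrl and 19 and 12 in SR2. The lowest called pileup in the THC lists was 5 and 7, and their median pileups were 21 and 44, against 62 and 58 in Ctrl. Whether an Mgll peak of unchanged strength would have been called at the depth of the THC libraries was not tested.

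Ptgs2, the inducible cyclooxygenase that makes prostaglandin precursors and can also oxidise endocannabinoids, was marked in the Ctrl libraries only. Its region, chr1:150099501-150100341 (+ strand), lay over the start at 150100031 and covered 841 and 337 bp in Ctrl and none in the 4 SR2 and THC libraries. The lncRNA Ptgs2os starts on the other strand at chr1:150099874, inside the same region, and the peak lists carry no strand to divide the signal between them. These peaks were weak, with summit pileups of 10 and 7 where the lowest pileup called in those lists was 6. In the second Ctrl library the peak stood at percentile 4.07 of its list by −log10 q.

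The sequences before the starts of Mgll and Ptgs2, which were marked in Ctrl but not in THC, and of Napepld, the gene with the strongest peak in all 6 libraries, are shown with CpG in capitals (RefSeq, GRCm38.p6, 5′ to 3′).
Mgll (chr6:88724162-88724411, + strand): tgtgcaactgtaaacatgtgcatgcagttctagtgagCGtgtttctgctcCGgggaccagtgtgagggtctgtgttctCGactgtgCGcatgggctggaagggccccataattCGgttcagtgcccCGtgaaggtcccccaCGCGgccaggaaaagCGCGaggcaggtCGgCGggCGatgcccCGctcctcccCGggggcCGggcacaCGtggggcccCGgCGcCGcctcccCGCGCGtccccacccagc
Ptgs2 (chr1:150099781-150100030, + strand): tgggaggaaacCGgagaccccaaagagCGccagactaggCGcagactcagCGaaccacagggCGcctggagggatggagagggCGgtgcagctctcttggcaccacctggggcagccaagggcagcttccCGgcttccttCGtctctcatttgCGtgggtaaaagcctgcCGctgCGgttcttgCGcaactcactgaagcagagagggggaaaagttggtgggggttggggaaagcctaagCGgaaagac
Napepld (chr5:21701623-21701872, - strand): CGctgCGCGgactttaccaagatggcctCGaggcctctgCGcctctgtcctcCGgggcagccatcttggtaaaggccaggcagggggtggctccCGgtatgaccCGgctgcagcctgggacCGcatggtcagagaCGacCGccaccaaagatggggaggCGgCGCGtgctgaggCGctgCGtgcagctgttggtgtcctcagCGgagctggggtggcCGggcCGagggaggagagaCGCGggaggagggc
Ptgs2, marked in Ctrl and in neither treatment, held 16 CpG in its window of 300 bases. Mgll held more at its 2 starts, 32 and 42, than Napepld at its start, 28. Whether CpG content goes with the absence of a peak in THC was not tested.

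**Figure D4:**
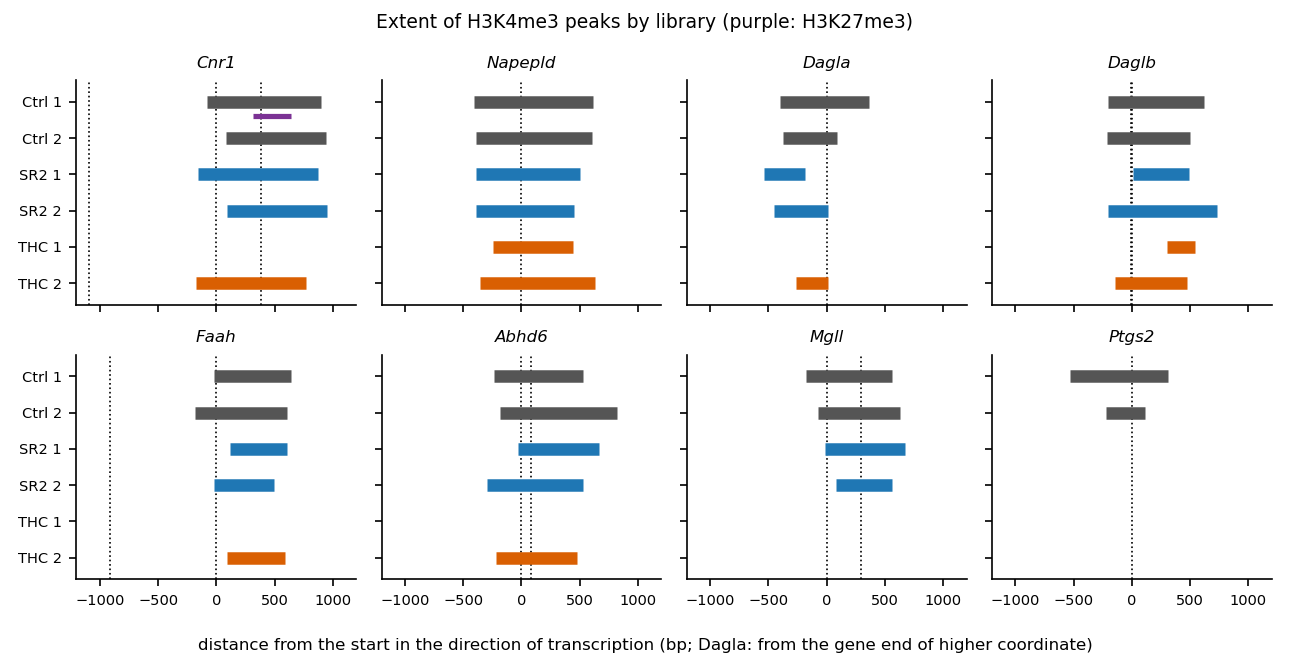
Extent of the H3K4me3 peak in each of the 6 libraries (rows) at the 8 genes with a region, as distance in bp from the start in the direction of transcription (Dagla: from its gene end of higher coordinate, in genome order); dotted lines are annotated starts and the purple bar is the H3K27me3 peak of the first Ctrl library at Cnr1. Rows without a bar have no peak, as in both THC rows of Mgll and all 4 treated rows of Ptgs2.

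The plot of peak extents shows that peaks present in THC lay within the stretch covered in Ctrl, except at Cnr1 and Napepld, where the peak of the second THC library reached past it on 1 side. Set against all starts, Ptgs2 was 1 of 7 members that lost the peak in SR2 (both Ctrl libraries and neither SR2 library), where the background was 1.31% of 9742 starts. Mgll and Ptgs2 were 2 of 7 in THC, where the background was 4.96%. Among starts below the lower quartile of Ctrl breadth, to which both belong, the background was higher, 5.13% in SR2 and 17.9% in THC. No member gained a peak in either treatment, and over all starts unmarked in both Ctrl libraries 0.0275% gained one in SR2 and 0% in THC. When the same number of peaks, 11924, was taken from each library by −log10 q, no member was lost in either treatment, since the Mgll peak of the second Ctrl library and both Ptgs2 peaks then fell outside the lists. Breadth was lower without overlap in THC than in Ctrl at 6 of 7 members, all but Cnr1, where 84.2% of 9922 starts also were. In SR2 it was lower at 4 of 7 (Napepld, Faah, Mgll and Ptgs2), against 48.5%. Between THC and SR2 it was lower in THC at 1 of 7, Mgll, against 49.3%. It was higher without overlap at 0 of 7 in SR2 than in Ctrl, in THC than in Ctrl and in THC than in SR2, against 1.55%, 0.0706% and 0.746%. An exact permutation test of 2 libraries against 2 cannot give a two-sided p below 0.333.

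The changes were then tested with limma on log2(covered bp + 200), over 15772 H3K4me3 regions, after each library was centred on its median over the regions marked in all 6. The resulting changes are relative to that centring. Wherever a peak is absent, no ratio of breadths exists, and the size of the change depends on the added 200 bp. Of the 8 members with a region, Dagla included, 0 passed an adjusted p of 0.05 in any of the 3 comparisons, and the background was 0% of all regions. At an unadjusted p under 0.05 there were 1405 narrower and 103 wider regions in SR2, 1 of them of a member (Ptgs2), and 2903 narrower and 695 wider in THC, 2 of them of members (Mgll and Ptgs2). The median change of the 8 regions was −0.07 in SR2 and −0.95 in THC. Over 8949 regions at protein-coding starts it was 0.01 and −0.01, and over all regions −0.03 and −0.15. Most members lay below the lower quartile of Ctrl breadth, and the median change of starts that narrow was not computed. Loss of the peak in both THC libraries was more frequent at such starts, 17.9% against 4.96% over all starts. The median of the 8 regions in THC was −0.093 without the first THC library, −1.57 without the second, and −0.27 with quantile normalization. In SR2 it was 0.14 with quantile normalization.

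The largest log2 change of the 8 genes in THC was that of Mgll, −1.83 ± 0.37 (SE) against Ctrl, with a limma adjusted p of 0.128. Without the first THC library it was −1.96 with an adjusted p of 0.171. Against SR2 it was −1.72 ± 0.37 with a limma adjusted p of 0.326. At Ptgs2 the log2 change was −1.52 ± 0.41 in THC and −1.76 ± 0.41 in SR2, with limma adjusted p of 0.136 and 0.122. In THC the changes of Dagla (−0.99), Abhd6 (−0.97), Faah (−0.93) and Cnr1 (−0.85) had SEs of 0.45 to 0.68 and adjusted p of 0.254 to 0.476. These 4 rested largely on the first THC library. Without it, Cnr1 turned to 0.28 (limma adjusted p 0.418), Abhd6 stood at −0.024, Faah at −0.16 and Dagla at −0.50. With it as the only THC library, assumed to vary like the other groups, Cnr1 stood at −1.96, Abhd6 at −1.90, Faah at −1.68 and Mgll at −1.67, with limma adjusted p of 0.0189 to 0.0406. Daglb (−0.32) turned to 0.0044 without that library, and Napepld was at 0.14. In SR2 the 7 genes other than Ptgs2 lay between −0.26 and 0.16, each with an adjusted p that rounds to 1.00. A p that misses the threshold does not show that breadth was the same in these groups.

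**Figure D5:**
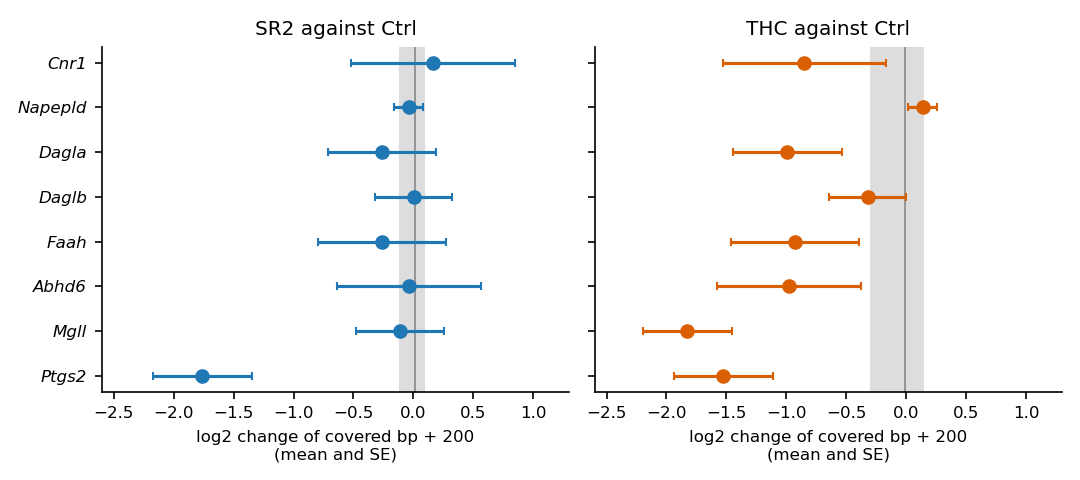
Change of H3K4me3 breadth at the 8 genes with a region, as log2 of covered bp + 200 (horizontal axis), for SR2 against Ctrl (left) and THC against Ctrl (right); points are the estimates of the limma fit, bars their SE, the grey band the middle part of all protein-coding starts from the lower to the upper quartile, and the grey line their median. In SR2 only the Ptgs2 point lies far from 0, and in THC the Mgll and Ptgs2 points lie lowest, none of them past the adjusted threshold.

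H3K27me3 was sparse at the 10 genes, as it was over all protein-coding genes. A peak over a gene or its 5 kb flank was found at Cnr1 in the first Ctrl library and at none of the 10 genes in the other 5 libraries, Cnr2 and Gpr55 included. That makes 1 of 10 in the first Ctrl library, where the background was 7.92% of 21883 protein-coding genes. In the other libraries, each with 0 of 10, the background was 1.11% in the second Ctrl library, 2.96% and 0.503% in SR2, and 3.07% and 0.137% in THC. Over all 6 libraries it was 11.7%. The Cnr1 peak covered 327 bp (chr4:33924578-33924904), inside the H3K4me3 region, over its start at 33924644. It had a fold enrichment of 3.62 and a −log10 q of 1.43 by the authors' caller, and it dropped out at a minimum −log10 q of 2. Of 10138 start regions with H3K4me3 in that library, 6.01% also held an H3K27me3 peak. How deeply the H3K27me3 libraries were sequenced is unknown.

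The genes whose breadth ran most like each member over the 6 libraries were found by Euclidean distance in centred log2(covered bp + 200). For Cnr1 they were Tmem191c, Plekhg1 and Podxl2, at distances of 0.202 to 0.238, each with 0 bp in the first THC library. For Mgll they were Ina, Ccdc158 and Carmil3 (0.230 to 0.239), each at 0 in both THC libraries. For Ptgs2 they were Paqr5, Nt5c1a and Aldh1a2 (0.193 to 0.247), each marked in Ctrl only, with the first Ctrl library the broader. Napepld had the closest neighbours, Tmem216, Dus3l and Gch1 (0.0799 to 0.112), with Tmem216 at 999 and 977 bp in Ctrl and 667 and 1018 bp in THC. Daglb had the most distant, Tmem177, Tceanc and 2610002M06Rik (0.301 to 0.360). The nearest to Faah were Zfp820, Agk and Sult2b1, to Abhd6 Stard13, Pdp2 and Tmem17, and to Dagla Kash5, Trpv2 and Egf. These likenesses are descriptions over 6 libraries that differ in median pileup, and the genes were picked by the same values that are shown.

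Of 52 further genes of endocannabinoid signalling, listed by role, 34 had an H3K4me3 region in at least 1 library and 20 in all 6. Over all protein-coding starts these shares were 59% and 48.4%. For 12 of the 52 no stranded start was at hand, and either gene end was used. Regions of 31 genes entered the limma test, and 0 passed the adjusted threshold in any comparison, against the same background of 0%. At an unadjusted limma p under 0.05 there were 2 of the 31 in SR2 and 6 in THC. Over all 15772 regions there were 1405 narrower and 103 wider in SR2, and 2903 narrower and 695 wider in THC. The median changes of the 31 regions were −0.03 in SR2 and −0.13 in THC. Ptgs1, the constitutive cyclooxygenase and paralogue of Ptgs2, was marked in Ctrl only, like Ptgs2, at 1047 and 652 bp with no peak in the 4 treated libraries. Trpv4, a cation channel opened by some endocannabinoid metabolites, and Gnai1, an inhibitory G protein subunit of the kind that CB1 and CB2 couple to, were marked in Ctrl and SR2 and in neither THC library. Trpv4 covered 1322 and 966 bp in Ctrl and 298 and 563 bp in SR2, and Gnai1 961 and 826 bp and then 655 and 663 bp. Together 1 of 30 listed genes marked in both Ctrl libraries was lost in SR2 and 3 of 30 in THC, where the shares over all starts were 1.31% and 4.96%, and none was gained.

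By role, 6 of 12 receptor and channel genes were marked in any library and 1 in all 6. Marked in any library were 7 of 8 coupling and accessory genes and 7 of 10 synthesis genes. The same held for 6 of 9 hydrolysis and carrier genes and 8 of 13 oxidation and prostanoid genes. Over all protein-coding starts the shares were 59% in at least 1 library and 48.4% in all 6. A stranded start was at hand for 11 of the 12 receptor and channel genes, 5 of the 8 coupling genes and 5 of the 9 hydrolysis genes. The rest were read at either gene end, so these lists are not measured alike. The broadest of each list in Ctrl was marked in all 6 libraries. These were Ppard, a nuclear receptor for fatty acids (1466 and 1997 bp in Ctrl, 887 and 1457 bp in THC), Gnai2, another inhibitory G protein subunit (at a gene end without a stranded start, 2678 and 2699 bp, then 1659 and 2615 bp), and Plcb3, a phospholipase C that yields diacylglycerol (2036 and 1721 bp, then 1013 and 1870 bp). The others were Lipe, the hormone-sensitive lipase (2221 and 1794 bp, then 610 and 1419 bp), and Ptges2, a prostaglandin E synthase (1798 and 1751 bp, then 1311 and 1691 bp). The Plcb3 region was shared with the start of Ppp1r14b, and the Lipe region with that of 4732471J01Rik. H3K27me3 lay over 10 of the 52 genes in at least 1 library, where the share over all protein-coding genes was 11.7%. It lay over 2 genes, Plcb3 and Pparg, in at least 2 libraries, a share not computed over all genes. Plcb3 had 211 bp in the first Ctrl, 129 bp in the first SR2 and 147 bp in the first THC library. Pparg, a nuclear receptor of adipocyte differentiation, had 817 and 1018 bp in the Ctrl libraries and none in the treated ones. The H3K27me3 lists differed in length, from 70 peaks for the second THC library to 2712 for the first Ctrl library. The second Ctrl list, at 387, was shorter than that of the first SR2 library (840) or the first THC library (984). Whether a Pparg peak of unchanged strength would have been called in the treated libraries was not tested.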

How the data were processed

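The members and gene lists were chosen with earlier results of these data known. Peaks were called per library, as the deposited peak names show. Tools credited in the submitters' processing notes, with no roles or order, are MACS3, bedtools, deepTools, Picard, SAMtools 1.8, Bowtie2 2.5.4 and cutadapt 5.2, and the build is mm10. Per the labels' protocols, each library came from 500000 cells, 60 min of tagmentation and 150 bp paired-end reads. For each peak the authors deposited a score, its fold enrichment (a ratio to background within 1 library), and −log10 p and −log10 q. These served to describe, order or select the peaks of 1 library. H3K4me3 summit pileups were recovered from the deposited fold and −log10 p, and 100% came out whole within 0.005. H3K27me3 lists gave none, so their depth is unknown. Read counts were not used here, so no count test was run.

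Peaks on chromosomes 1 to 19, X and Y were merged at an overlap of 1 bp or more (24596 H3K4me3 regions). Starts came from the RefSeq promoter table and the 5′ gene end by strand (GRCm38.p6, the assembly of mm10); 9 of the 10 members matched. A gene was given the region with the most covered bp within 1 kb of a start. H3K27me3 was read over the gene and 5 kb of flank. Exons and introns were not analysed here. limma 3.58.1 (trend, R 4.3.3) was fitted to log2(covered bp + 200) for 15772 regions marked in at least 2 libraries, all 6 libraries in 1 fit, centred on the median over 10140 regions marked in all 6, with Benjamini-Hochberg adjustment and a threshold of 0.05. The script was tested on simulated data. The named genes were the 10 members, any gene whose start lay within 1 kb of a member's region, the 3 most alike in breadth per member, and, of the 52 listed genes, those lost or gained, those with H3K27me3 in at least 2 libraries and the broadest of each role.

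Replicates shared few identical intervals and were kept as n = 2. Whether they are separate cultures is not in the labels, so p-values reflect only how these samples vary, perhaps for technical reasons. The labels give the batch the replicate's number, which pairs the samples; deviations of same-numbered libraries correlated at −0.0619 (Ctrl and SR2), 0.0344 (Ctrl and THC) and 0.0479 (SR2 and THC) over 15772 regions. The protocol and the design text name different dissociation enzymes. Alternatives tried were other pseudocounts, centrings, region filters, fits, windows and peak thresholds, and leaving out each library. The leukocyte marker list is not reported here in full.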

Additional observations from a re-analysis of the deposited data

How the results depend on the processing

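No member passed the adjusted threshold as reported. With a pseudocount of 50 bp, 1 did in SR2 (Ptgs2, limma adjusted p 0.0241) and 2 in THC (Mgll 0.0355, Ptgs2 0.0315). Over all 15772 regions that setting called 1032 narrower and 27 wider in SR2, and 1397 narrower and 20 wider in THC. In THC, 2 members passed without centring (limma adjusted p 0.0162 for Mgll and 0.0362 for Ptgs2), where 1908 of all regions were narrower and 6 wider. Without centring the median over all regions was −0.17 in SR2 and −0.52 in THC. Leaving out each library in turn gave 0 to 4 members passing in THC and 0 to 2 in THC against SR2. All of those passed without the second THC library, so that the first stood alone. That fit cannot measure the spread between THC libraries, so no conclusion is drawn from the members passing there in either comparison. At a minimum −log10 q of 5, 0 members were lost in SR2 and 1 (Mgll) in THC, and with equal peak numbers 0 and 0. Leaving out each library gave 2 to 5 lost in THC, the 5 again without the second THC library. At a −log10 q of at least 2, 0 members had H3K27me3 in the first Ctrl library. The fit with the replicate block changed no member's call (Mgll and Ptgs2 in THC, limma adjusted p 0.193 for both).

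Directions turned in these cases, none past the threshold. With quantile normalization the log2 change in SR2 was 0.20 at Abhd6, 0.091 at Dagla, 0.19 at Mgll and 0.0063 at Napepld, and in THC 0.34 at Daglb. Without centring it was −0.14 at Daglb in SR2 and −0.24 at Napepld in THC. At Daglb in SR2 it was −0.018 with the pseudocount of 50 bp and −0.028 with the window of 1 kb around the start. Leaving out each library gave, in SR2, −0.23 to 0.16 at Abhd6, −0.31 to 0.31 at Daglb, −0.35 to 0.13 at Mgll and −0.12 to 0.046 at Napepld, and, in THC, −1.96 to 0.28 at Cnr1 and −0.62 to 0.0044 at Daglb. The cause was not tested. With 2 libraries a group, and pileups of 7 and 10 at Ptgs2 where the lowest called was 6, an absent peak does not show an absent mark.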
